A study of Mus musculus with 12 samples.

Results

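Kinesins are motor proteins that walk along microtubules or take them apart at their ends. The mouse genes examined here are those measured by an array probe set with a single gene symbol made of Kif and a number, with the probe set of highest mean level standing for a gene. This gave 27 genes of the 14860 genes that have such a probe set. Only Kif1c had 2 of them, and the one with the lower mean was not examined on its own. By role, 9 are on a list of mitotic kinesins and 11 on a list of transport kinesins. The 7 on neither list, among them Kif2a, are called other kinesins here, whatever else they do. Of 12 mitotic and 15 transport kinesins listed by name, 9 and 11 were thus measured. The rest were not analysed here, among them Kif17, whose probe set also names another gene, and Kif18b, whose probe set lists it under more than 1 gene identifier.

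The study asked how microRNA-155 and the homeobox factor Meis1 bear on Hoxa9-driven growth of mouse marrow cells. It holds 12 Affymetrix expression arrays of total RNA from cultured bone marrow progenitor cells in 5 groups. All groups carried retroviral Hoxa9, a homeobox gene that keeps marrow progenitors growing, in an MSCV construct. Marrow came from C57B/6 mice labelled female, 12 weeks old and treated with 5-FU, which kills cycling marrow cells, and the cells grew in DMEM with FCS, IL3, SCF and IL6. The 3 miR-155 arrays held wild-type cells with Hoxa9 and miR-155, and the 3 knockout arrays held miR-155 KO cells with Hoxa9 and the empty vector MIG. A single Meis1 array held wild-type cells with Hoxa9 and Meis1, and its label carries the tag 3w, which stands on no other array and is not explained. Wild-type cells with Hoxa9 and an empty vector made up the last groups, 2 arrays with the vector MIY and 3 with MIG. The labels do not say which vector is the control of the Meis1 array, and the design text names MIY as the control of miR-155. That text speaks of 3 independent experiments per condition. These are mixed cultures, and no array isolates a cell type.

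Mitotic kinesins build the spindle, move chromosomes on it and help to close the cell at cytokinesis, and most of them are made mainly by cells in G2 and mitosis. Transport kinesins carry vesicles, mitochondria and other cargo and are best known from neurons and cilia, but the conventional kinesin heavy chain Kif5b and several relatives are used by most cells. Kif21a belongs to the kinesin-4 family, is tied to the cell cortex through Kank proteins and restrains microtubule growth there. MicroRNA-155 is a haematopoietic microRNA that lowers transcripts with matching sites, which usually lie in 3′ untranslated regions.

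The mature miR-155 strand that was overexpressed or deleted is shown because its seed, bases 2 to 8 in capitals, sets which sites it can pair with. It lies at chr16:84714143-84714165 on the plus strand of GRCm38.p6 in RefSeq.
mmu-miR-155-5p: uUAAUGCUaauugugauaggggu
Untranslated regions were not used here, so sites in kinesin transcripts were not looked for, and miR-155 itself was not measured by these arrays.

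Promoters are shown for members of both main roles, because many genes that peak in G2 and mitosis carry a cell cycle homology region (CHR) and CCAAT boxes just before their start. The mitotic kinesins shown are those with a CHR in the 250 bases before the start. Kif18a, Kif20b, Kif23 and Kif4 hold none there and are not shown. The promoters of the mitotic kinesin Kif20a and the transport kinesins Kif5a and Kif5b were not available and were not examined. Each line gives the 110 bases before the gene start on the gene's own strand, from RefSeq's GRCm38.p6. Capitals mark a CHR, searched as TTTGAA or TTTAAA on both strands (TTCAAA is the reverse of the first), or a CCAAT box, which reads ATTGG on the other strand. No CHR shares a base with a CCAAT box in these lines. Kif11 is at chr19:37376272-37376381 and Kif15 at chr9:122950971-122951080, both on the plus strand. Kif22 is at chr7:127042421-127042530 and Kif2c at chr4:117178773-117178882, both on the minus strand. Beside them stand the transport kinesins called in the comparisons of miR-155, knockout and MIG cells. These are Kif1b, at chr4:149307734-149307843 on the minus strand (the farther upstream of 2 starts in the table), Kif3c, at chr12:3365022-3365131 on the plus strand, and Kif21a, at chr15:91049952-91050061 on the minus strand.
Kif11: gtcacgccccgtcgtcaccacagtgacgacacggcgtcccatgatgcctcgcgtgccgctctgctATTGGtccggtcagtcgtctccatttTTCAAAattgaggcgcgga
Kif15: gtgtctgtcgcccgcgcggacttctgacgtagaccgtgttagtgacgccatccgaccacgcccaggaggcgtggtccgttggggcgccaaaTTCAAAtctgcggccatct
Kif22: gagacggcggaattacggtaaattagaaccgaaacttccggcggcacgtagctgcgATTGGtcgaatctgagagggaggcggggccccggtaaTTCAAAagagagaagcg
Kif2c: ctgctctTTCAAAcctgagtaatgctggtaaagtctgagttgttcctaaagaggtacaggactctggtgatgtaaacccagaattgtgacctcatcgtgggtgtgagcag
Kif1b: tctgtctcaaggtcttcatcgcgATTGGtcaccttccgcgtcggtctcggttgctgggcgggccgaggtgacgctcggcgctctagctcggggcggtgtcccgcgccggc
Kif3c: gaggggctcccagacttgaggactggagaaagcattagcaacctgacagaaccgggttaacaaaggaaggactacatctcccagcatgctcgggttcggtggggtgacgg
Kif21a: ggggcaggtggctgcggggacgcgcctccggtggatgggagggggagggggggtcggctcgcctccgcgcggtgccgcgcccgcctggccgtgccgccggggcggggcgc
In Kif11, Kif15 and Kif22 a CHR lies close to the gene start. Over the 250 bases before the start, 4 of 8 mitotic kinesins in the promoter table held a CHR and 4 held a CCAAT box, with both in 2. Among transport kinesins 1 of 9 held a CHR, 3 a CCAAT box and 0 both. The other kinesins had 2 of 7 with a CHR, 4 with a CCAAT box and 2 with both. Of all 27018 genes in that table, 28.1% held a CHR, 37.5% a CCAAT box and 10.1% both. A match describes these letters and is not a known binding site, and with 7 to 9 genes a role the shares are loose.

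Values are log2 levels per probe set as deposited, so a difference of 1 is a doubling. Hoxa9 was high on all arrays, at 13.07 to 13.41. Meis1 was at 12.11 on the array labelled Meis1, against 6.74 to 8.10 on the other 11. The progenitor markers Kit (9.25 to 10.06) and Cd34 (9.36 to 10.70) and the leukocyte marker Ptprc (10.49 to 11.16) were measured in every group. Mpo, on the same list of 8 progenitor markers, was not even, at 10.99 on the Meis1 array and 12.71 to 13.39 on the others. The MIY arrays stood apart, with correlations of 0.936 to 0.966 with the other arrays, whereas the lowest correlation among the miR-155, knockout and MIG arrays was 0.981. Eif2s3y and Kdm5d, which are Y-linked, were at 6.89 or more on the Meis1 array and both MIY arrays and at 3.50 or less on the other 9, although all mice were labelled female. Comparisons that set Meis1 or MIY arrays against MIG or miR-155 arrays therefore also compare cells that differ in Y-linked expression, which cannot be told apart from the vector or gene they carry. Relative to that, the miR-155, knockout and MIG groups form 1 set of 9 like arrays. Meis1 against MIY alone sets arrays high in these genes against each other. Eif2s3y was at 8.24 with Meis1 and 9.23 to 9.31 with MIY, and Kdm5d at 6.89 and 8.05 to 8.15.

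The levels of the mitotic kinesins ran from 7.74 for Kif18a, at the 62.4th percentile of probe set means, to 10.26 for Kif11, at the 94.3rd. Kif11 pushes the spindle poles apart. Among transport kinesins Kif5b, a heavy chain of conventional kinesin, averaged 10.04, whereas its relatives Kif5a and Kif5c, best known from neurons, averaged 5.18 and 4.99. Kif1a, a carrier of synaptic vesicle precursors, averaged 5.25. Kif21a averaged 5.75, at the 36.1st percentile. The lowest member was Kif27, a gene tied to cilia, at 3.98 and the 12.1st percentile. Levels of different probe sets are not on 1 scale, so these positions describe the array and do not rank the transcripts. The neuronal markers Snap25, Syt1, Rbfox3 and Map2 averaged between 4.92 and 5.24 in all 5 groups.

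**Figure D1:**
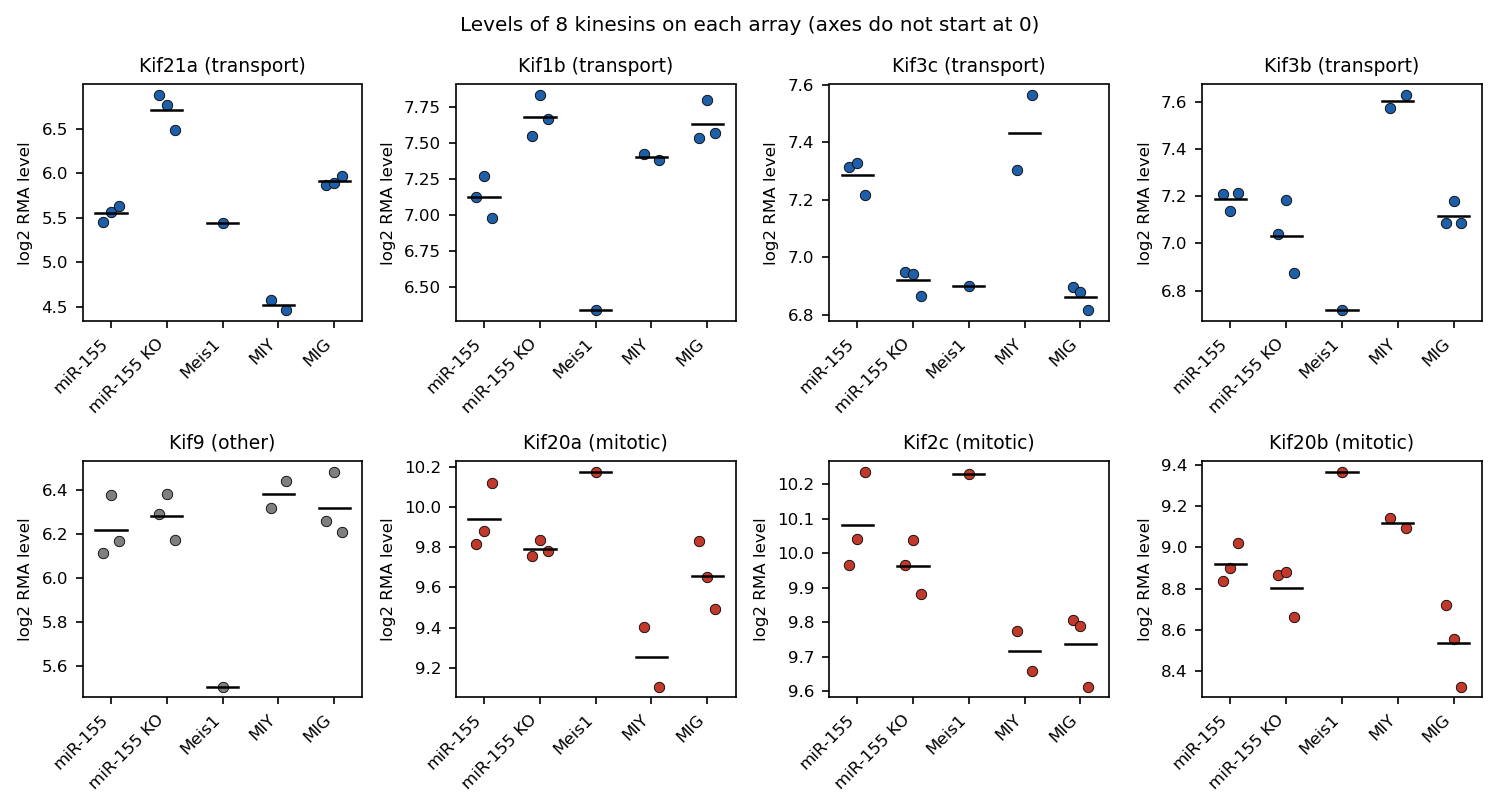
Log2 RMA levels (vertical axes, not starting at 0) of 8 kinesins on each array, 1 point per array, with a bar at the group mean, in the miR-155, miR-155 knockout, Meis1, MIY and MIG groups. Kif21a was highest on the knockout arrays (6.49 to 6.87) and lowest on the MIY arrays (4.47 and 4.58). Kif1b and Kif9 were lowest on the Meis1 array.

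**Figure D2:**
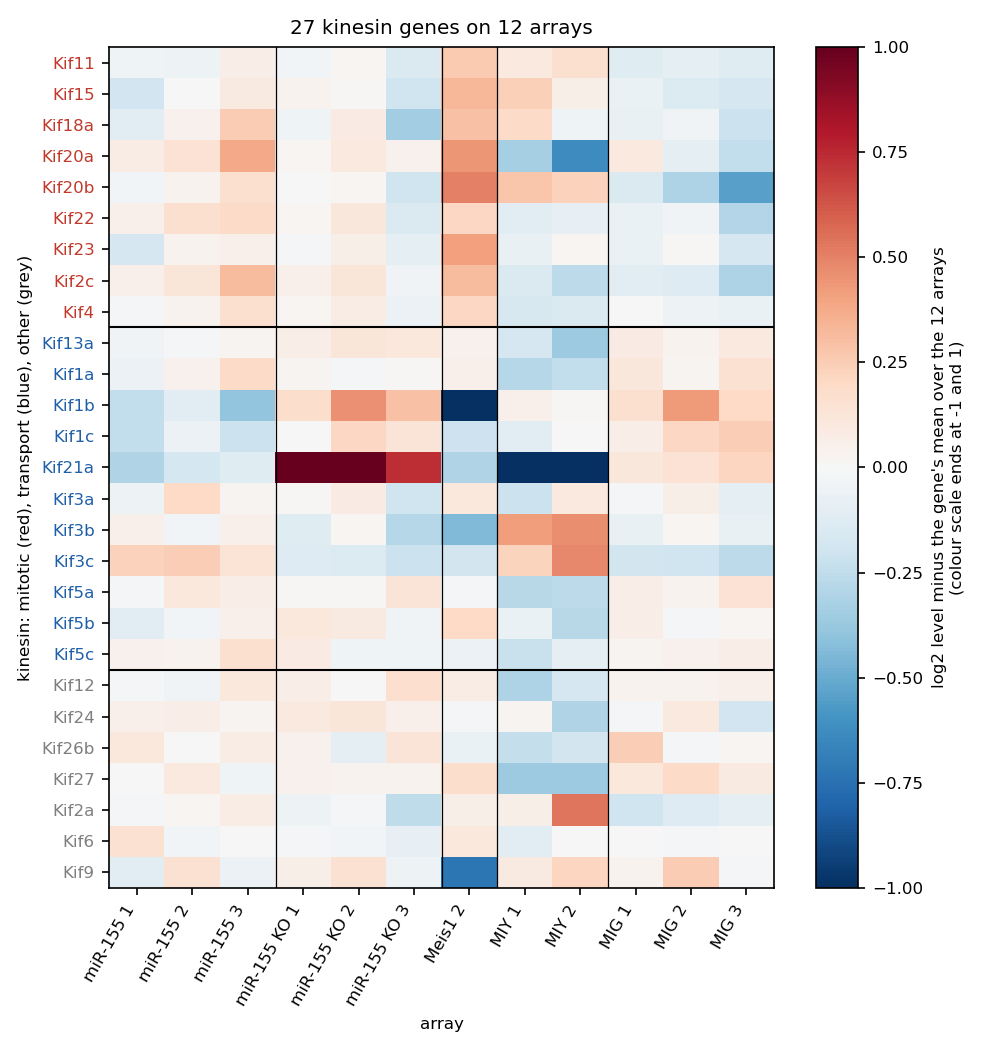
Deviation of each of 27 kinesins (rows, by role) from its mean over the 12 arrays (columns, by group), as log2 with the colour scale ending at -1 and 1. The Kif21a row holds the widest range, and the mitotic rows are high on the Meis1 array.

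Overexpressed miR-155 was set against the MIG vector in wild-type cells. Of the 27 kinesins, Kif3c rose and Kif1b fell, and the other 25 did not pass the test. Called here means an adjusted p under 0.05 in limma, with Benjamini-Hochberg adjustment over 16015 probe sets. At that threshold 3.29% of all probe sets were called, 0.612% higher and 2.68% lower. Across all probe sets the median change was -0.01.

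Kif3c pairs with Kif3a in a kinesin-2 motor. Its level was 7.31, 7.33 and 7.22 in miR-155 cells, against 6.90, 6.88 and 6.82 in MIG cells. Every miR-155 array lay above every MIG array. The log2 change was 0.42 ± 0.08 (SE, n = 3 each, limma adjusted p = 0.0166), a 1.34-fold difference. The call was lost (limma adjusted p up to 0.0826) when any of the 3 MIG arrays, or miR-155 replicate 1 or 2, was left out.

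Kif1b carries mitochondria and vesicles. Its level was 7.12, 7.27 and 6.98 in miR-155 cells, against 7.53, 7.80 and 7.57 in MIG cells. Again the groups did not overlap. The change was -0.51 ± 0.11 (SE, n = 3 each, limma adjusted p = 0.0288), a 1.42-fold difference. The call was lost (limma adjusted p up to 0.118) when any of the 3 MIG arrays, or miR-155 replicate 1 or 3, was left out, or with adjustment over all probe sets (limma adjusted p = 0.0634). The count of kinesins called was 0 without any one MIG array and without miR-155 replicate 1, was 1 without miR-155 replicate 2 or 3, and reached 3 without knockout replicate 3 or either MIY array.

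Kif21a was at 5.45, 5.57 and 5.63 in miR-155 cells, against 5.87, 5.89 and 5.97 in MIG cells. The arrays did not overlap, but the change of -0.36 ± 0.10 was not called (limma adjusted p = 0.0958, SE, n = 3 each). It was called in a fit of the miR-155 and MIG arrays alone (limma adjusted p = 0.0369). Of the other kinesin-3 genes related to Kif1b, Kif1c, which moves vesicles, changed by -0.35 ± 0.08 (limma adjusted p = 0.059) and Kif1a by -0.04 ± 0.07 (limma adjusted p = 0.877), and neither was called. The changes of the other 7 transport kinesins lay between -0.08 and 0.08, and the median of all 11 was -0.04. The values by gene are drawn in the plot of changes with miR-155.

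All 9 mitotic kinesins had a positive change with miR-155, with a median of 0.17, and 0 were called by limma (4 at an unadjusted p under 0.05). The largest were Kif20b, which acts in cytokinesis, at 0.39 ± 0.11 (limma adjusted p = 0.0917), and Kif2c, which takes microtubules apart at the centromere, at 0.34 ± 0.09 (limma adjusted p = 0.0773). Kif2c was at 9.97, 10.04 and 10.24 in miR-155 cells, against 9.81, 9.79 and 9.61 in MIG cells, which do not overlap. With the arrays' medians aligned, Kif2c passed the threshold (limma adjusted p = 0.0453). The smallest change of the group was 0.05, for Kif23, which bundles microtubules of the midzone with Racgap1.

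Genes that work with the mitotic kinesins were counted on a list of their own. Of 25 measured spindle, kinetochore and cytokinesis genes, 24 had a positive change with miR-155, with a median of 0.17, and 1 was called. That gene, Aurka, a spindle pole kinase, changed by 0.37 ± 0.07 (limma adjusted p = 0.0235). Of 12 genes of DNA replication and proliferation, 0 were called (3 at an unadjusted p under 0.05) and the median was 0.04. Of 13 cargo adaptors of transport kinesins 0 were called (2 at an unadjusted p under 0.05). In the same comparison 6 of 6 mast cell and basophil markers, 5 of 6 macrophage markers and 3 of 3 eosinophil markers were called lower. Of 8 progenitor markers 1 was called lower and 0 higher, with a median of -0.16. The mean level of the mast cell and basophil markers was 8.37 to 8.49 on the miR-155 arrays and 9.96 to 10.24 on the MIG arrays. Macrophage markers averaged 8.43 to 8.79 on miR-155 arrays and 9.58 to 9.72 on MIG arrays, and eosinophil markers 8.02 to 8.24 on miR-155 arrays and 9.68 to 10.05 on MIG arrays. The part of these cells in the kinesin changes was not tested. In bulk RNA, fewer cells of a type and less RNA per cell cannot be told apart.

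**Figure D3:**
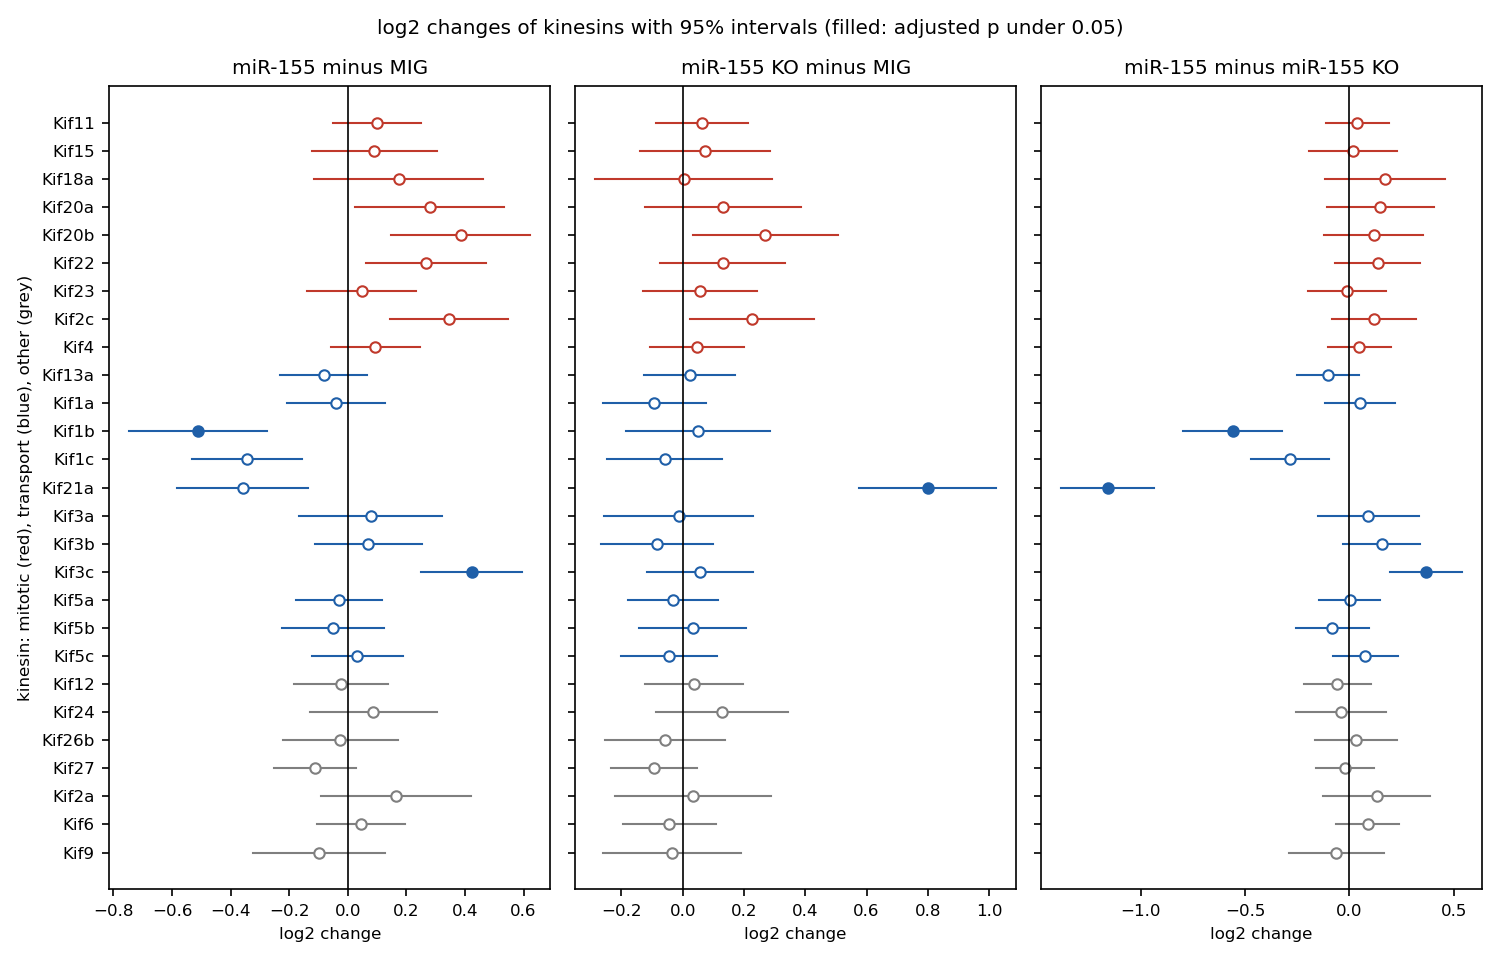
Log2 change of each of 27 kinesins (vertical axis, by role) with its 95% interval (horizontal axis), for miR-155 against MIG, knockout against MIG, and miR-155 against knockout, on the deposited scale. Filled points passed an adjusted p of 0.05. Kif21a lies at 0.80 in knockout against MIG and at -1.16 in miR-155 against knockout, whereas the mitotic kinesins lie between -0.01 and 0.39 in all 3 panels.

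Loss of miR-155 was examined by setting knockout cells with MIG against wild-type cells with MIG. Kif21a rose, and the other 26 kinesins did not pass the test. Of all probe sets 0.0312% were called, 5 of 16015, with 0.0187% higher and 0.0125% lower. Kif21a was at 6.87, 6.77 and 6.49 in knockout cells, against 5.87, 5.89 and 5.97 in MIG wild-type cells. The lowest knockout array was above the highest wild-type array. The change was 0.80 ± 0.10 (SE, n = 3 each, 95% interval 0.58 to 1.02, limma adjusted p = 0.0366), or 1.74-fold.

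The size of the Kif21a change was steadier than its call. With 1 array left out at a time it ran from 0.72 to 0.91. The call was lost (limma adjusted p up to 0.26) without any one of the 3 MIG arrays, any one of the 3 miR-155 arrays, or knockout replicate 1 or 2. It was also lost in a fit of the knockout and MIG arrays alone (limma adjusted p = 0.0948) and with adjustment over all probe sets, named or not (limma adjusted p = 0.0792). With the replicate number as a block in the fit the call was lost as well (limma adjusted p = 0.206). Without the Meis1 and MIY arrays, an alternative chosen after seeing the data, Kif21a was still called (limma adjusted p = 0.0295).

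No mitotic kinesin passed the test in the knockout. All 9 had a positive change, the median was 0.07, and 0 were called by limma (2 at an unadjusted p under 0.05). The MIG arrays are also the reference of miR-155 against MIG. The signs of mitotic kinesins and partner genes are thus not independent between those comparisons. Kif20b was at 8.86, 8.88 and 8.66 in knockout cells, against 8.72, 8.56 and 8.32 in MIG cells. Those groups overlapped, and the change of 0.27 ± 0.11 was not called (limma adjusted p = 0.996). Kif2c changed by 0.23 ± 0.09 (limma adjusted p = 0.996). Of the transport kinesins after Kif21a, the largest change was -0.09 ± 0.07 for Kif1a (limma adjusted p = 0.996), and the median of the 11 was -0.01. Of the 25 mitotic partner genes, 23 had a positive change and 0 were called (5 at an unadjusted p under 0.05). For the markers of other cells, 1 of 6 mast cell and basophil markers was called lower, and 0 of 6 macrophage and 0 of 3 eosinophil markers were called.

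Cells with excess miR-155 were also set against cells with none. This comparison uses the miR-155 arrays of the first comparison and the knockout arrays of the second, so its values are not independent of theirs. Kif3c rose and Kif21a and Kif1b fell, 3 of 27, where 4.06% of all probe sets were called, 1.09% higher and 2.98% lower. Kif21a changed by -1.16 ± 0.10 (SE, n = 3 each, limma adjusted p = 0.000343), a 2.23-fold difference, and kept its call with each array left out in turn. Kif1b changed by -0.56 ± 0.11 (limma adjusted p = 0.0164) and was at 7.55, 7.83 and 7.67 in knockout cells. Kif3c changed by 0.37 ± 0.08 (limma adjusted p = 0.0286) and was at 6.95, 6.94 and 6.87 in knockout cells.

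Those last values place the knockout arrays beside MIG for Kif1b and Kif3c. The changes in knockout against MIG were 0.05 ± 0.11 for Kif1b and 0.06 ± 0.08 for Kif3c, both with a limma adjusted p of 0.996. The Kif1b call was lost without miR-155 replicate 1 or 3 or knockout replicate 2 or 3, and the Kif3c call without MIG replicate 2 or any one of the miR-155 or knockout arrays, or with adjustment over all probe sets (limma adjusted p = 0.0592). The number of kinesins called was 1 without miR-155 replicate 1 or 3 or knockout replicate 2 or 3. Among the mitotic kinesins 8 of 9 had a positive change, the median was 0.12 and 0 were called by limma (0 at an unadjusted p under 0.05). Kif18a, which steadies chromosomes on the spindle, changed by 0.17 ± 0.13 and Kif20a, which brings Aurora B to the midzone, by 0.15 ± 0.11. The mast cell and basophil markers (6 of 6), the eosinophil markers (3 of 3) and 4 of 6 macrophage markers were called lower here too, and their part in the kinesin values was not tested.

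In the comparisons that use the Meis1 or MIY arrays the whole array shifted. The median change of all probe sets was 0.11 for Meis1 against the controls, 0.21 for miR-155 against MIY and -0.22 for MIY against MIG. The changes in these comparisons are therefore given with the medians of all arrays aligned to one another, unless the deposited scale is named.

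The 1 array with Meis1 was compared with both vector groups, averaged with equal weight, and its spread is taken to be that of the others. Mitotic kinesins were high on it, while Kif1b, Kif3b and Kif9 were far below the controls. Of the 27 kinesins, Kif20a, Kif23 and Kif2c rose and Kif1b, Kif1c, Kif3b, Kif3c and Kif9 fell. In all, 23.3% of probe sets were called, 9.57% higher and 13.7% lower. On the deposited scale 6 kinesins were called higher and 3 lower, where 27.1% of probe sets were called, 17.1% higher and 9.93% lower. In a fit of the Meis1, MIY and MIG arrays alone, on the deposited scale, only Kif1b, Kif3b and Kif9 kept a call.

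Kif1b was at 6.34 with Meis1, against 7.42 and 7.38 with MIY and 7.53, 7.80 and 7.57 with MIG. No other array of the series was as low. The change was -1.30 ± 0.14 (limma adjusted p = 0.000103, n = 1 against 2 and 3), and on the deposited scale it was called against either vector alone. Kif3b, the partner of Kif3a in the main kinesin-2 motor, was at 6.72 with Meis1, against 7.58 and 7.63 with MIY and 7.09, 7.18 and 7.09 with MIG. The change was -0.76 ± 0.10 (limma adjusted p = 0.000627). Kif3b was called against either vector on the deposited scale, with a change of -0.89 against MIY alone (limma adjusted p = 0.000526) and of -0.40 against MIG alone (limma adjusted p = 0.0425). Kif9, a gene tied to motile cilia, was at 5.50 with Meis1, against 6.32 and 6.44 with MIY and 6.26, 6.49 and 6.21 with MIG. Its change was -0.96 ± 0.12 (limma adjusted p = 0.000459).

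Kif1c changed by -0.38 ± 0.10 (limma adjusted p = 0.025), and on the deposited scale by -0.27 without a call. For Kif3c the change was -0.36 ± 0.11 (limma adjusted p = 0.0345). On the deposited scale it was -0.25 and not called, and against MIG alone it was 0.04. Kif21a was at 5.44 with Meis1, which lies between the MIY arrays and the MIG arrays. Its change of 0.11 ± 0.12 was not called (limma adjusted p = 0.556). On the deposited scale it was -0.46 against MIG alone (limma adjusted p = 0.0523) and 0.92 against MIY alone (limma adjusted p = 0.00119).

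All 9 mitotic kinesins had a positive change with Meis1, with a median of 0.21, and of 0.32 on the deposited scale. Kif20a was at 10.18 with Meis1, against 9.40 and 9.11 with MIY and 9.83, 9.65 and 9.49 with MIG. The change was 0.60 ± 0.15 (limma adjusted p = 0.0166). Against MIG alone, on the deposited scale, it was 0.52 and not called (limma adjusted p = 0.0583). Kif2c changed by 0.39 ± 0.11 (limma adjusted p = 0.0324) and Kif23 by 0.35 ± 0.10 (limma adjusted p = 0.0317). Kif20b, at 9.37 on the Meis1 array and below that on all others, had a change of 0.42 ± 0.14 that was called on the deposited scale (limma adjusted p = 0.0202) and missed with medians aligned (limma adjusted p = 0.0502). The chromokinesin Kif4, which changed by 0.19, and Kif27, which changed by 0.17, were also called on the deposited scale alone. No mitotic kinesin kept a call in the fit of the Meis1, MIY and MIG arrays alone.

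Partner genes of the mitotic kinesins were counted beside them, where 23.3% of all probe sets were called, 9.57% higher and 13.7% lower. Of 25 measured, 8 were called higher on the Meis1 array and 0 lower, with a median of 0.28. The 3 with the smallest p were Aurka at 0.47 ± 0.09 (limma adjusted p = 0.00435), the spindle protein Spag5 at 0.49 ± 0.09 (limma adjusted p = 0.00487) and the checkpoint kinase Ttk at 0.59 ± 0.14 (limma adjusted p = 0.0126). Of 12 replication and proliferation genes, 6 were called higher and 0 lower, led by Tyms, which makes thymidylate, at 0.92 ± 0.21, and the replicative helicase subunits Mcm2 at 0.74 ± 0.17 and Mcm6 at 0.45 ± 0.12. Of 13 transport adaptors, 3 were called lower and 0 higher, a share of calls near that of all probe sets. Those 3 adaptors were the kinesin light chain Klc1 at -0.52 ± 0.09, Mapk8ip3 at -0.70 ± 0.16 and Kank1, a cortical partner of Kif21a, at -0.40 ± 0.10.

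Markers of mature myeloid cells were low on the Meis1 array. All 6 late neutrophil markers, 6 of 6 mast cell and basophil markers, 5 of 6 macrophage markers and 3 of 3 eosinophil markers were called lower, and 1 macrophage marker was called higher. Of 8 progenitor markers 2 were called higher and 2 lower, with changes from -2.23 to 0.55. Late neutrophil markers averaged 6.96 with Meis1, 9.75 to 10.78 with MIY and 10.96 to 11.05 with MIG. Macrophage markers averaged 6.87 with Meis1, 9.12 to 9.82 with MIY and 9.58 to 9.72 with MIG. Mast cell and basophil markers averaged 7.40 with Meis1, close to the 7.46 to 7.56 with MIY and well under the 9.96 to 10.24 with MIG, and eosinophil markers averaged 6.78 with Meis1, 7.48 to 8.36 with MIY and 9.68 to 10.05 with MIG. The part of these cells in the kinesin values was not tested.

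**Figure D4:**
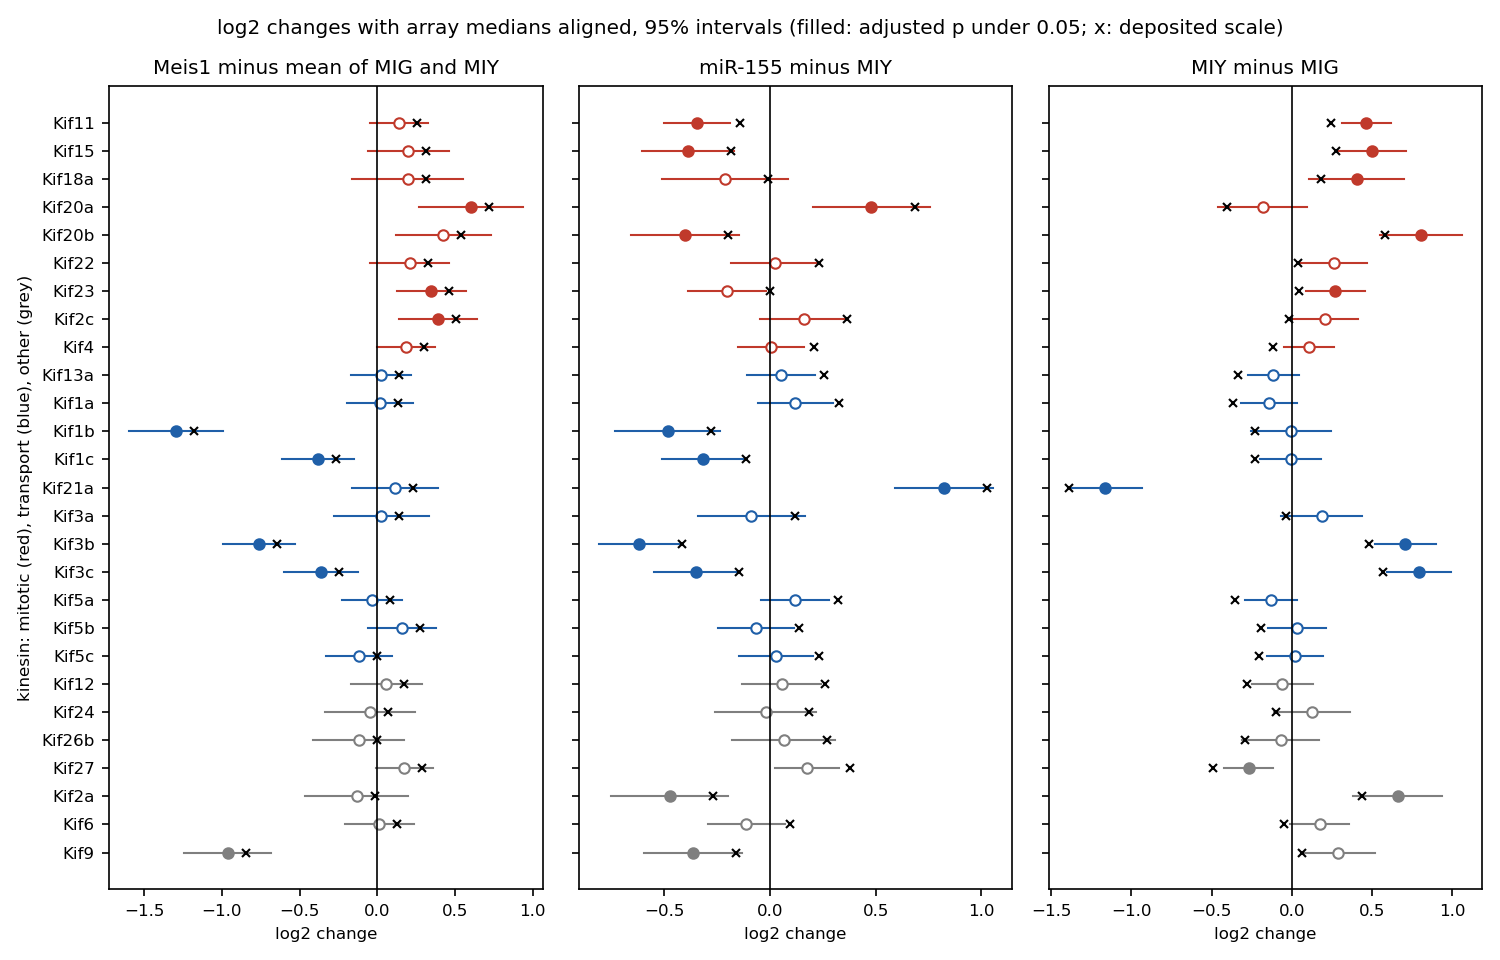
Log2 change of each of 27 kinesins (vertical axis, by role) with its 95% interval (horizontal axis) and array medians aligned, for Meis1 against the mean of both vectors, miR-155 against MIY, and MIY against MIG. Crosses give the same change on the deposited scale, and filled points passed an adjusted p of 0.05. Crosses lie to the right of the points in the first 2 panels and to the left in the third, by about the shift of the whole array.

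miR-155 was also set against MIY, the control that the design text names. Of 27 kinesins 2 were called higher and 9 lower, where 37.8% of probe sets were called, 18.2% higher and 19.6% lower. On the deposited scale the split turned round, with 11 kinesins higher and 1 lower, beside 48.3% of probe sets called, 38.5% higher and 9.85% lower. Kif21a and Kif20a were higher and Kif3b was lower on both scales. In a fit of the miR-155 and MIY arrays alone, on the deposited scale, 5 kinesins were called.

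Kif21a changed by 0.82 ± 0.10 against MIY (limma adjusted p = 0.000296, n = 3 against 2), the opposite sign of its change against MIG. The miR-155 arrays, at 5.45, 5.57 and 5.63, all lay above the MIY arrays, at 4.58 and 4.47. Kif3b changed by -0.62 ± 0.09 (limma adjusted p = 0.000511). It was at 7.21, 7.14 and 7.22 in miR-155 cells, against 7.58 and 7.63 in MIY cells. Kif1b, which fell against MIG, was also lower here, by -0.48 ± 0.11 (limma adjusted p = 0.00775), though not called on the deposited scale at -0.28 (limma adjusted p = 0.0731). Kif3c had the sign opposite to that against MIG, at -0.35 ± 0.09 (limma adjusted p = 0.0116), and was not called on the deposited scale at -0.15. Kif1c changed by -0.32 ± 0.09 (limma adjusted p = 0.0163), and by -0.11 on the deposited scale without a call.

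Against MIY 1 mitotic kinesin was called higher and 3 lower. Kif20a rose by 0.48 ± 0.12 (limma adjusted p = 0.0132). Kif11 at -0.35 ± 0.07, Kif15, which backs up Kif11 on the spindle, at -0.39 ± 0.10 and Kif20b at -0.40 ± 0.11 fell, with limma adjusted p of 0.00383, 0.011 and 0.0202, but none of these 3 was called on the deposited scale. The median of the 9 was -0.20. Among other kinesins, Kif2a, a microtubule depolymerizer, changed by -0.48 ± 0.12 and Kif9 by -0.37 ± 0.10, with limma adjusted p of 0.0138 and 0.02 and no call on the deposited scale. Other lists are read against the 37.8% of all probe sets called. Of 25 mitotic partners 7 were called higher and 3 lower, a share near that of all probe sets, including the anaphase activator Cdc20 at 0.79 ± 0.08, Aurka at 0.46 ± 0.07 and the checkpoint kinase Bub1 at -0.57 ± 0.10. On the deposited scale 13 partners were called higher and 1 lower, beside 48.3% of all probe sets called. Of 13 transport adaptors 3 were called lower and 0 higher with medians aligned, a share below the 37.8%. They were the mitochondrial anchor Rhot1 at -0.46 ± 0.06, Kank1 at -0.45 ± 0.08 and the kinesin-2 subunit Kifap3 at -0.35 ± 0.11. Of the markers of other cells, 5 of 6 macrophage markers were called lower, with a median of -1.03, and 3 of 6 mast cell and basophil markers higher, with a median of 0.61. Their part in the kinesin values was not tested.

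The empty vectors themselves differed. In MIY against MIG, 8 of 27 kinesins were called higher and 2 lower, beside 38.5% of probe sets called, 19.9% higher and 18.7% lower. On the deposited scale 5 were higher and 8 lower, beside 49.5% of probe sets called, 9.10% higher and 40.4% lower. Kif21a changed by -1.16 ± 0.10 (limma adjusted p = 3.55e-05, n = 2 against 3) and by -1.39 on the deposited scale. Kif27 changed by -0.27 ± 0.07 (limma adjusted p = 0.0116). This comparison shares the MIG arrays with the first 2 comparisons and the MIY arrays with the previous one.

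Both Kif3 motors that pair with Kif3a were higher in MIY cells. Kif3c, at 7.30 and 7.56 in MIY cells against 6.90, 6.88 and 6.82 in MIG cells, rose by 0.79 ± 0.09 (limma adjusted p = 0.000142). Kif3b, at 7.58 and 7.63 in MIY cells against 7.09, 7.18 and 7.09 in MIG cells, rose by 0.71 ± 0.09 (limma adjusted p = 0.000238). Both were called on the deposited scale as well. Kif3a itself changed by 0.19 ± 0.11 and was not called (limma adjusted p = 0.225). Their accessory subunit Kifap3 rose by 0.65 ± 0.11 (limma adjusted p = 0.00127), among 9 of 13 transport adaptors called higher and 0 lower. On the deposited scale only 1 of these 13 adaptors was called higher and 2 lower, beside 9.10% of probe sets called higher and 40.4% lower.

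Of the mitotic kinesins 5 were called higher in MIY than in MIG. They were Kif20b at 0.81 ± 0.11 (limma adjusted p = 0.000576), Kif15 at 0.50 ± 0.10, Kif11 at 0.47 ± 0.07, Kif18a at 0.40 ± 0.13 and Kif23 at 0.27 ± 0.08. On the deposited scale Kif20b and Kif11 remained called higher and Kif20a was called lower, at -0.41. The median of the 9 was 0.27, and 0.05 on the deposited scale. Kif2a rose by 0.66 ± 0.12 (limma adjusted p = 0.00263). Proliferation genes were mixed in the same cells, with the mitotic topoisomerase Top2a at 0.61 ± 0.09 and Mki67 at 0.54 ± 0.09 called higher and Mybl2 at -1.12 ± 0.21 among 5 of 12 called lower. The partners Bub1b at 0.52 ± 0.06 and Anln at 0.43 ± 0.07 rose and Cdc20 at -0.49 ± 0.08 fell, among 4 called higher and 2 lower of 25, a share under the 38.5% of all probe sets. On the deposited scale 3 of these partners were called higher and 8 lower, beside 49.5% of all probe sets called. In MIY cells 6 of 6 mast cell and basophil markers were called lower, with a mean of 7.46 to 7.56 in MIY cells and 9.96 to 10.24 in MIG cells, and the part of these cells in the kinesin values was not tested.

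Across the 5 groups Kif21a had its highest mean in knockout cells, 6.71 ± 0.20, followed by MIG at 5.91 ± 0.05, miR-155 at 5.55 ± 0.09, the Meis1 array at 5.44 and MIY at 4.52 ± 0.08 (SD, n = 3, 3, 3, 1 and 2, deposited scale). The knockout arrays lay apart from MIG, and the MIY arrays lay apart from all others. miR-155 and Meis1 were neighbours, and the step between miR-155 and MIG was not called in the fit over all arrays. The median deviation of the mitotic kinesins, on the deposited scale, from their 12-array means was 0.31 on the Meis1 array, -0.03 to 0.16 on the miR-155 arrays, -0.14 to 0.07 on the knockout arrays, -0.07 and -0.05 on the MIY arrays and -0.21 to -0.07 on the MIG arrays. Transport kinesins had medians between -0.17 and 0.10 on all arrays. The list of mitotic partners, like that of the kinesins, was chosen with earlier results of these data known. On the deposited scale their median deviation was 0.29 on the Meis1 array and -0.15 and -0.25 on the MIY arrays. On those MIY arrays the median of all probe sets was itself -0.17 and -0.18. With array medians aligned, the median change of these partners in MIY against MIG was 0.15.

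**Figure D5:**
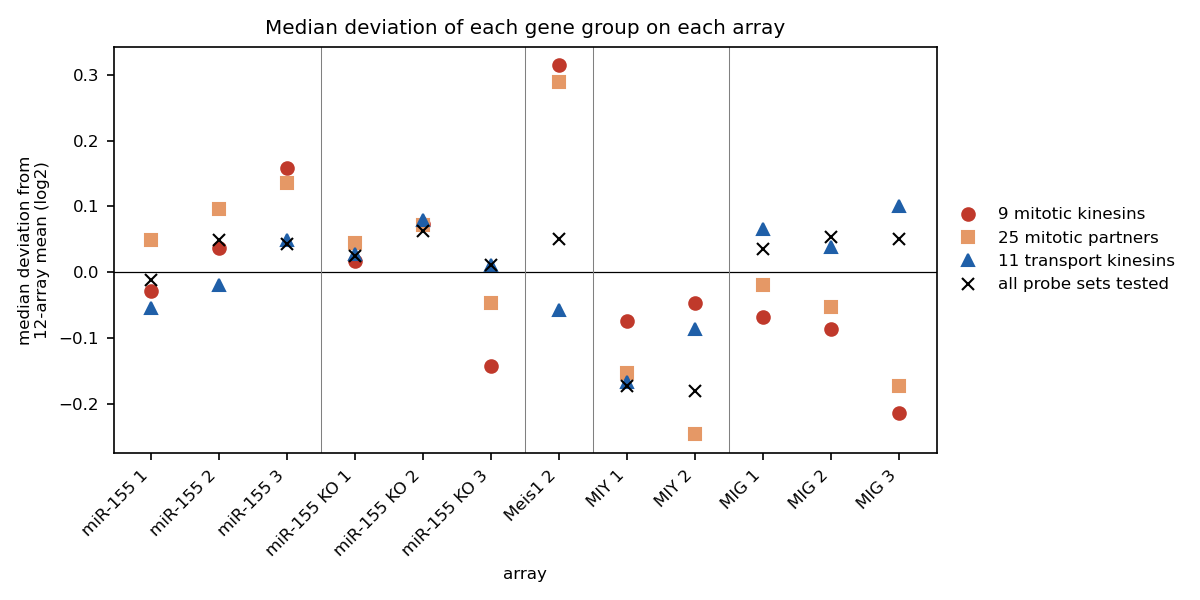
Median deviation from the 12-array mean (vertical axis, log2) on each array (horizontal axis, by group) of the mitotic kinesins, the transport kinesins, the mitotic partner genes and all probe sets tested. The mitotic kinesins and their partners are highest on the Meis1 array, at 0.31 and 0.29, and the probe sets together are lowest on the MIY arrays, at -0.17 and -0.18.

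Members without a call in any comparison on either scale were Kif22, Kif24, Kif6, Kif3a and Kif5b. Kif22, a chromokinesin, had changes of 0.27 with miR-155 against MIG and 0.13 with the knockout. Kif5b stayed between 9.76 and 10.24 on all 12 arrays. Kif3a lay between 7.20 and 7.61, Kif24, which restrains cilia at the centriole, between 7.83 and 8.25, and Kif6 between 4.99 and 5.25. Kif12, Kif13a, Kif1a, Kif26b, Kif4, Kif5a and Kif5c were called only on the deposited scale and only in comparisons with Meis1 or MIY arrays, where the whole array shifted.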

How the data were processed

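Arrays were of total RNA labelled with biotin. The authors deposited 1 log2 level for each probe set on each array. Per the submitters' processing notes they used RMA in the Affymetrix Expression Console (version not given in the sources here), a method that subtracts background, equalizes probe distributions between arrays and combines a set's probes. Of 23332 probe sets, the 16015 with a symbol in the platform annotation were tested, and members came from the 14996 with 1 symbol. A mean per group was fitted over all 12 arrays with limma 3.58.1 in R 4.3.3 (7 residual and 3.06 prior degrees of freedom, two-sided), and p-values were adjusted by Benjamini-Hochberg. The fit was tested on simulated data with independent noise and no shift of whole arrays, which is unlike the Meis1 and MIY comparisons. The labels name no separate animals, so p-values measure the spread between these arrays, whose number limits the precision.

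Members and lists were chosen with earlier results of these data known. Named in full are members called in any comparison, the 2 mitotic and 2 transport members with the largest change in each, and Kif21a. Of partner lists up to 3 called members with the smallest p are named, and marker lists are given as counts. Alternatives changed the scaling, filter, variance trend, arrays and control.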

Additional observations from a re-analysis of the deposited data

How the results depend on the processing

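The number of kinesins called in miR-155 against MIG was 2, 1 with adjustment over all probe sets, and 0 to 3 with 1 array left out at a time. In knockout against MIG it was 1, and 0 over all probe sets, in a fit of only the groups compared and in some runs with 1 array left out (0 to 1). It was 1 to 3 in miR-155 against knockout, 7 to 11 in Meis1 against the vectors, 8 to 12 in miR-155 against MIY and 10 to 14 in MIY against MIG with 1 array left out, against 3, 9, 12 and 13 in all on the deposited scale. With only the groups compared it was 3 for Meis1 and 5 for miR-155 against MIY, where the fits hold fewer arrays, and with MIY alone as control of Meis1 it was 14. With array medians aligned, the medians of mitotic and transport kinesins were 0.21 and -0.035 for Meis1, -0.20 and -0.065 for miR-155 against MIY, and 0.27 and -0.0062 for MIY against MIG. Quantile normalization gave 0.037 for transport kinesins in miR-155 against MIY, and 0.20 and -0.11 for mitotic and transport kinesins in MIY against MIG. With MIG alone as control of Meis1 they were 0.45 and -0.10, and the changes of Kif21a and Kif3c turned to -0.46 and 0.037. With 1 array left out, Kif23 in MIY against MIG ran from -8e-04 (without MIG replicate 3) to 0.0938. For these medians and turned signs the cause was not tested. Around their group means, same-numbered arrays of different groups correlated at -0.067 to 0.164, and arrays of different number at -0.146 to 0.114. These ranges overlap, so they do not settle whether the replicate numbers pair the arrays. With the replicate number as a block 0 kinesins were called in knockout against MIG (Kif21a, limma adjusted p = 0.206), 3 in each of the other 2 comparisons within the 9 like arrays, and 8, 10 and 14 in those with Meis1 or MIY. A fit without the Meis1 and MIY arrays, chosen after seeing the data, called 3 kinesins in miR-155 against MIG, 1 in knockout against MIG and 3 in miR-155 against knockout.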

Other observations

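Tubulins are the tracks that kinesins share with other motors. With array medians aligned, 3 of 11 measured tubulin genes were called higher on the Meis1 array and 3 lower, where 23.3% of all probe sets were called. The beta tubulin Tubb6 changed by 1.11 ± 0.11 (limma adjusted p = 9.42e-05), Tubb2a by -2.14 ± 0.55 (limma adjusted p = 0.0202) and Tuba8 by 0.73 ± 0.21 (limma adjusted p = 0.0315). In MIY against MIG, Tubb6 changed by -0.66 ± 0.09 (limma adjusted p = 0.000629), with 2 of 11 tubulin genes called higher and 2 lower, a share near the 38.5% of all probe sets. In miR-155 against MIY 4 were called higher and 2 lower, where 37.8% of all probe sets were called. These tubulin splits depended on the scale. On the deposited scale 4 were higher and 1 lower with Meis1, where 27.1% of all probe sets were called. In MIY against MIG 0 were higher and 5 lower on that scale, beside 49.5% of probe sets called. In miR-155 against MIY 6 were higher and 0 lower on it, beside 48.3%. In limma, 0 of 11 were called in miR-155 cells against MIG (2 at an unadjusted p under 0.05) and 0 in knockout cells against MIG (0 at that p).

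Dynein, the motor that runs toward the other end of the microtubule, and its activator dynactin had 16 measured genes. On the Meis1 array 3 were called higher and 4 lower, against 23.3% of all probe sets called, with Ndel1 at -0.41 ± 0.09 (limma adjusted p = 0.012), Dynlt3 at -0.54 ± 0.13 (limma adjusted p = 0.0164) and Dctn4 at -0.46 ± 0.12 (limma adjusted p = 0.0198). On the deposited scale 3 were called higher on that array and 0 lower, beside 17.1% of probe sets called higher and 9.93% lower. In MIY against MIG 5 were called higher and 3 lower, against 38.5% of all probe sets, with Dynlt3 at 0.52 ± 0.11 (limma adjusted p = 0.00513). On the deposited scale that split turned round, with 0 called higher and 6 lower, beside 9.10% of probe sets called higher and 40.4% lower. In miR-155 against MIY 1 was called higher and 2 lower, a share below the 37.8% of all probe sets. On the deposited scale 7 were called higher and 2 lower there, a share above the 48.3% of all probe sets called. Of 8 measured kinesin genes and light chains whose symbols lie outside the rule used here, limma called 0 in miR-155 cells against MIG (2 at an unadjusted p under 0.05) and 0 in knockout cells (0 at that p).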
